A study of Mus musculus with 56 samples.

Results

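The genes described here encode the calcium/calmodulin-dependent kinases (CaM kinases) and their close relatives, followed in the hippocampus of mice with acquired epilepsy. The 10 genes were taken by name, with earlier results of these data known. They were the kinase kinase Camkk2, the CaM kinase I genes Camk1, Camk1d and Camk1g, and Camk4. The others were the CaM kinase II genes Camk2a, Camk2b, Camk2d and Camk2g, and Camkv. A probe had to be detected (p under 0.05 against the negative control probes) on at least 6 of 56 arrays, which 14 of the 19 probes of these genes were. That left 9 of the 10 genes among the 9893 genes tested. The exception was Camk4, whose 1 probe was detected on 0 of 56 arrays: it was not above background and has no result.

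CaM kinases are activated when calcium entering a cell binds calmodulin and the complex docks on the kinase. CaM kinase II is an abundant protein of excitatory synapses, built as a holoenzyme from the subunits encoded by Camk2a, Camk2b, Camk2g and Camk2d, and it phosphorylates glutamate receptors and scaffold proteins during synaptic plasticity. CaM kinases I and IV need a further phosphorylation by a CaM kinase kinase such as Camkk2, which also phosphorylates AMP-activated kinase. Camkv encodes a vesicle-associated member of the family that lacks kinase activity.

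Hippocampal RNA of 56 adult male NMRI mice, older than 12 weeks, was hybridised to Illumina MouseRef-8 v2 arrays, 1 array per mouse. Of these, 6 were naive mice that had no pilocarpine and received vehicle, and 50 had become epileptic after a pilocarpine-induced status epilepticus that was limited with diazepam (pilocarpine is a muscarinic agonist, given after N-methylscopolamine). The epileptic mice received by daily oral gavage vehicle (17 mice), PLX3397 at 3 mg/kg (18 mice) or PLX3397 at the higher dose of 30 mg/kg (15 mice). PLX3397 is a small-molecule inhibitor of the Csf1 receptor of microglia that also inhibits the receptor c-Kit; the sample labels give 7 days of treatment and the series design text 2 weeks. No naive mouse received PLX3397, so the drug was measured in epileptic tissue alone. The tissue was whole hippocampus, in which fewer cells of a type and less RNA per cell cannot be told apart.

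The arrays were alike in brightness: their median signal ran from 109.2 to 150.8 intensity units and 44.3 to 49.8% of probes were detected. Neuronal markers were present in every mouse, and 8 of the 10 listed were measured (all but Snap25 and Nefl). Their mean log2 level was 11.54 to 11.68 in naive mice, 10.96 to 11.18 in epileptic vehicle mice, 11.09 to 11.48 at 3 mg/kg and 11.11 to 11.51 at the higher dose. The corresponding ranges for 8 of 10 astrocyte markers (all but S100b and Gjb6) were 10.26 to 10.39, 10.53 to 11.18, 10.43 to 11.07 and 10.32 to 11.01. For 10 of 13 microglial markers they were 8.35 to 8.53, 8.90 to 9.88, 8.71 to 9.38 and 8.31 to 9.03. Epileptic vehicle mice against naive mice had 6 of 8 neuronal markers lower, 5 of 8 astrocyte markers higher and 9 of 10 microglial markers higher. Against epileptic vehicle mice, 6 of 8 neuronal markers were higher at each dose, 4 of 8 astrocyte markers were lower at each dose, and 7 and 9 of 10 microglial markers were lower at 3 and 30 mg/kg. Lists of narrower types were less uniform. Of 8 pyramidal neuron markers, 5 were lower and 0 higher in epileptic vehicle mice, then 4 were higher and 1 lower at 3 mg/kg and 2 higher and 0 lower at 30 mg/kg, with mean levels of 10.74 to 10.93 in naive mice and 9.81 to 10.63 in epileptic vehicle mice. Of 8 interneuron markers, 5 were lower and 1 higher in epileptic vehicle mice, then 5 higher and 1 lower, and 4 higher and 1 lower, at the doses. Of 8 oligodendrocyte markers, 4 were lower and 1 higher, then 1 and 1 at each dose, and of 8 endothelial markers 1 was lower and 2 higher, then 2 and 0 were higher. Only 3 of 10 dentate granule cell markers were measured: 1 was lower and 1 higher in epileptic vehicle mice, 0 were called at the doses, and their mean level was 8.70 to 8.91 in naive mice and 8.99 to 9.70 in epileptic vehicle mice. The shares of all 9893 genes were 26.5% lower and 22.6% higher for epileptic vehicle against naive mice, 18.5% higher and 16.9% lower for 3 mg/kg, and 16.3% and 15.7% for 30 mg/kg, both against epileptic vehicle mice. The part of these shifts in the kinase results was not tested.

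The promoters of 3 genes are printed for the changes described below. Camkk2 had the largest fall in epileptic vehicle against naive mice without background subtraction. Camk2b and Camk1 moved in opposite directions, both in epileptic vehicle against naive mice and at each dose of PLX3397 against epileptic vehicle mice. Each sequence runs from 250 bases before to 50 bases after the RefSeq start of the gene. Capitals mark the motifs searched on both strands, which were the cAMP response element TGACGTCA, its shorter core TGACG, the GC box GGGCGG and the TATA box TATAAA. The full element contains the core on each strand.
Camkk2, GRCm38.p6 chr5:122779361-122779660, minus strand: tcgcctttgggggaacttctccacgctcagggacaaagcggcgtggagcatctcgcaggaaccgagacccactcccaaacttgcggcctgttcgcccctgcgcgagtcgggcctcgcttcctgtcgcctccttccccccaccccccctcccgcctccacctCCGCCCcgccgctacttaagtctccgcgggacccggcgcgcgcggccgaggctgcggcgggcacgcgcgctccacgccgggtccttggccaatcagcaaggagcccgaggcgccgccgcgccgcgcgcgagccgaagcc
Camk2b, GRCm38.p6 chr11:6065699-6065998, minus strand: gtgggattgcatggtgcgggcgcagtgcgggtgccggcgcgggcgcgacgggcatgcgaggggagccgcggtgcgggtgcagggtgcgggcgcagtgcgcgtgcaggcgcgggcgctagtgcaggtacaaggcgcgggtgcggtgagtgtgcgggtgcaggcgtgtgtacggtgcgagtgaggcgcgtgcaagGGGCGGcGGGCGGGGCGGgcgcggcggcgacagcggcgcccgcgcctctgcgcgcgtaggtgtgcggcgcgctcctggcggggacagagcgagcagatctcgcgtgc
Camk1, GRCm38.p6 chr6:113343873-113344172, minus strand: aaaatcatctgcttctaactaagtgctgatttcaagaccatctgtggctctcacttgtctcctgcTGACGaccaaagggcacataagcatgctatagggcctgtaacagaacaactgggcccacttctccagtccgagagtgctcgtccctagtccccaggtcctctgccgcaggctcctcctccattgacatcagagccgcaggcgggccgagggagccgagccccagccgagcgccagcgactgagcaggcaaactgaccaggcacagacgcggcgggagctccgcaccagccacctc
The sequences differ in these letters: Camkk2 held 1 GC box, Camk2b held 3, with first bases at -57, -50 and -45 from the start (the last 2 share 1 base), and Camk1 held a single core of the cAMP response element, at -185. Over the 7 of 10 genes with a promoter in the table (8 windows, since Camk1d has a pair), 6 windows held a GC box, against 35.7% of 32851 mouse promoters. Bases G and C made up 48.7% of 1 Camk1d window with a GC box and 68.3 to 77.3% of the others with one. They made up 60.0 and 44.7% of the windows of Camk1 and Camk1g, which held none. The median over all promoters was 52.7%, and the comparison of GC boxes does not allow for base composition. The core stood in 1 of 8 windows (20.8% of all promoters), and the full element and the TATA box stood in 0 (1.79% and 13.6% of all). These are matches of letters, and nothing measured here bears on whether a factor binds them.

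The first comparison was of epileptic vehicle mice with naive mice. Naive mice had no pilocarpine, so epilepsy, pilocarpine, the status epilepticus and diazepam cannot be told apart in it. Of the 9 measured genes, 5 were lower and 1 was higher in epileptic mice (limma, Benjamini-Hochberg adjusted p under 0.05 over 9893 genes). Over all genes tested, 26.5% were lower and 22.6% higher. The genes that fell were Camkk2, Camk2b, Camkv, Camk1g and Camk1d, and the gene that rose was Camk1. The median log2 fold change of the 9 genes was -0.46, against -0.005 over all genes. In 5 of the 9 genes the groups did not overlap, a separation seen in 15.1% of all genes.

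Camkk2, the activating kinase, had the largest log2 fold change of the 9 genes without background subtraction, a measure that understates the change of dim probes. Its log2 signal was 8.76, 8.99 and 9.10 (lowest, median and highest) in the 6 naive mice and 7.85, 8.16 and 8.38 in the 17 epileptic vehicle mice. Every epileptic vehicle mouse lay below every naive mouse. The log2 fold change was -0.83 (SE 0.089, adjusted p = 2.39e-11 by limma), so that the signal in epileptic mice was 0.561 of the naive level. A second, dimmer Camkk2 probe, detected on 56 arrays, gave -0.71 (SE 0.061, adjusted p = 5.54e-14 over 14058 probes). The submitters' sample numbers fall into 2 runs, and within the first and second run the difference was -0.89 and -0.75.

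**Figure D1:**
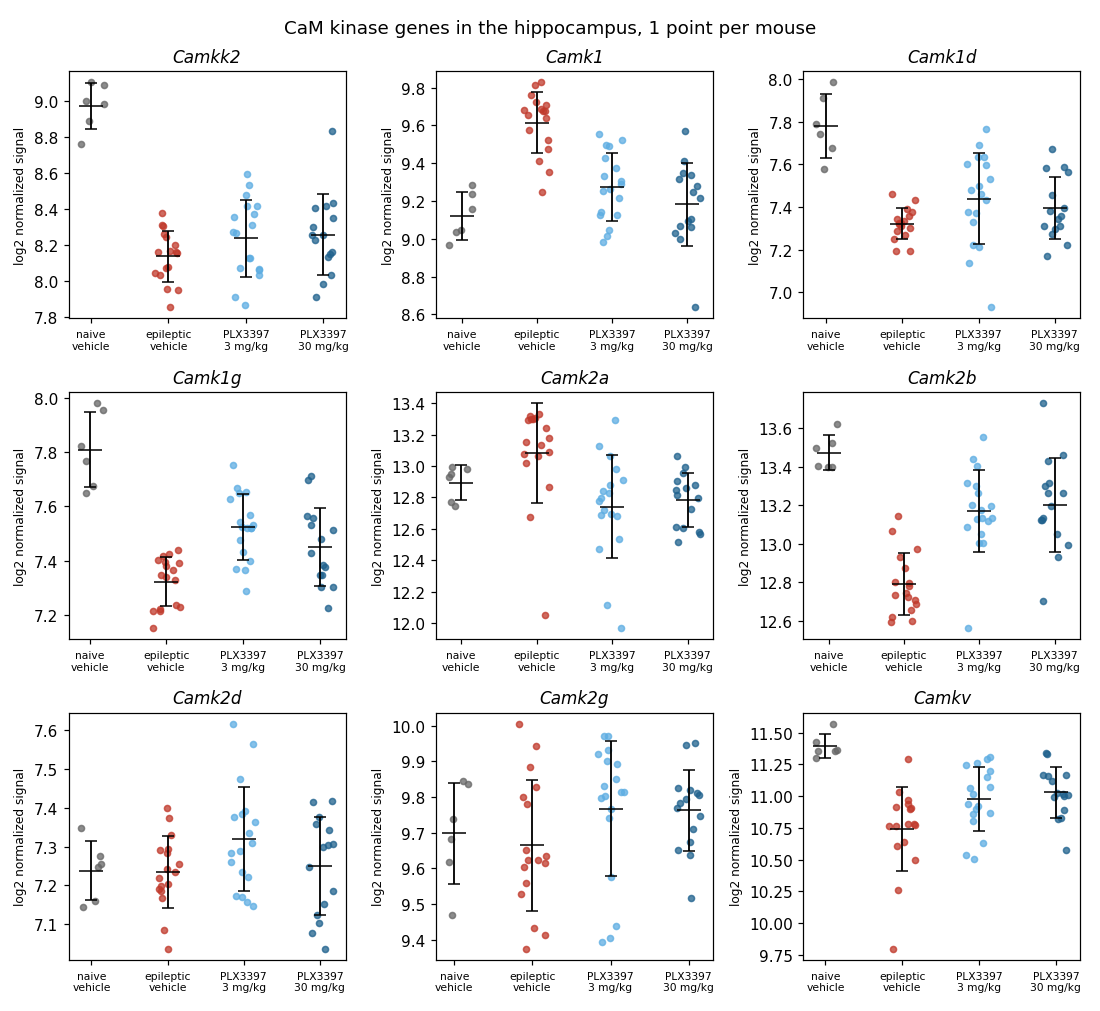
Log2 quantile-normalized signal of the 9 measured genes by group, 1 point per mouse (6, 17, 18 and 15 mice), with the mean (bar) and SD (whisker); each panel has its own scale, which does not start at 0. All epileptic vehicle mice lie below all naive mice for Camkk2, Camk1d, Camk1g, Camk2b and Camkv, and 16 of 17 lie above them for Camk1.

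Within the CaM kinase I genes, Camk1 rose and its paralogs Camk1d and Camk1g fell. Camk1 stood at 8.97, 9.10 and 9.29 (lowest, median and highest) in naive mice and at 9.25, 9.68 and 9.83 in epileptic vehicle mice. All but 1 of the 17 epileptic mice exceeded the highest naive mouse. The log2 fold change was 0.49 (SE 0.085, adjusted p = 2.32e-06), or 1.41-fold, and 0.42 and 0.55 within the runs.

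Camk1g signal was 7.65 to 7.98 in naive mice (median 7.79) and 7.15 to 7.44 in epileptic vehicle mice (median 7.35). Camk1d was at 7.58 to 7.98 (median 7.77) and 7.19 to 7.46 (median 7.33). Neither gene's groups overlapped. The log2 fold changes were -0.49 for Camk1g (SE 0.057, adjusted p = 4.28e-10) and -0.46 for Camk1d (SE 0.073, adjusted p = 5.23e-07). Within the runs they were -0.58 and -0.40 for Camk1g and -0.48 and -0.44 for Camk1d. Both probes are dim, and a fold change without background subtraction understates the change of a dim probe: with background correction (normexp) the values were -1.08 and -1.02. A second Camk1g probe was detected on only 6 arrays (3 of 6 naive mice, 0 of 17 epileptic vehicle mice, 2 of 18 mice at 3 mg/kg and 1 of 15 at 30 mg/kg), so it was not above background in epileptic vehicle mice and gives no fold change.

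The CaM kinase II genes parted. Camk2b, the beta subunit, which binds actin, was at 13.40, 13.45 and 13.62 in naive mice (lowest, median and highest) and at 12.59, 12.74 and 13.14 in epileptic vehicle mice. No epileptic vehicle mouse reached the lowest naive mouse. The log2 fold change was -0.68 (SE 0.093, adjusted p = 1.29e-08), 0.623 of the naive level, and -0.65 and -0.68 within the runs.

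Camk2a, the alpha subunit of forebrain excitatory neurons, was at 12.74, 12.94 and 12.99 in naive mice and at 12.05, 13.15 and 13.33 in epileptic vehicle mice. In 14 of 17 epileptic mice it lay above all naive mice and in 2 below all of them. The difference of 0.19 (95% interval -0.07 to 0.44, adjusted p = 0.229) did not pass the test. The lowest value came from epileptic vehicle mouse 6, whose second Camk2a probe was also the lowest of its group; without this mouse the difference was 0.25 (adjusted p = 0.0497). The second probe gave 0.11 (SE 0.15) over all mice.

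Camk2d and Camk2g, the delta and gamma subunits, which many tissues express, showed no difference that passed the test. Camk2g ranged from 9.47 to 9.84 in naive mice and from 9.37 to 10.00 in epileptic vehicle mice, with a difference of -0.03 (95% interval -0.19 to 0.12). Camk2d ranged from 7.14 to 7.35 and from 7.04 to 7.40, with a difference of -0.003 (95% interval -0.11 to 0.11). The Camk2d probe was close to background, detected on 53 arrays. The dimmer Camk2g probe gave -0.05. A dimmer Camk2d probe was detected in 4 of 6 naive mice and 3 of 17 epileptic vehicle mice, 11 of 18 at 3 mg/kg and 7 of 15 at 30 mg/kg, and its differences are not given.

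The log2 difference between Camk2a and Camk2b within each mouse compares the subunits on the same array. Because probes differ in brightness, only its shift between groups can be read. It was -0.58 ± 0.13 (SD, n = 6) in naive mice, with a range of -0.75 to -0.43. In epileptic vehicle mice it was 0.29 ± 0.32 (SD, n = 17) and ranged from -0.54 to 0.69. At 3 mg/kg it was -0.43 ± 0.31 (SD, n = 18) and at 30 mg/kg -0.42 ± 0.25 (SD, n = 15). The naive and epileptic vehicle ranges overlapped, and the PLX3397 means lay nearer to the naive mean than to the epileptic vehicle mean. Camk2a minus Camk2g was 3.20 ± 0.079 in naive mice, 3.42 ± 0.38 in epileptic vehicle mice, 2.97 ± 0.33 at 3 mg/kg and 3.02 ± 0.21 at the higher dose.

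Camkv, the pseudokinase, stood at 11.30, 11.36 and 11.57 in naive mice (lowest, median and highest) and at 9.80, 10.78 and 11.29 in epileptic vehicle mice. The groups did not overlap, although the highest epileptic mouse came close to the lowest naive one. The log2 fold change was -0.65 (SE 0.12, adjusted p = 6.9e-06), with -0.70 and -0.52 within the runs. Epileptic vehicle mouse 6, the lowest for Camk2a, was also the lowest for Camkv.

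Next, each dose of PLX3397 was compared with epileptic vehicle mice. The 17 vehicle mice serve in both, so the doses are set side by side and are not independent of each other or of the first comparison. Of the 9 genes, 3 rose and 2 fell at 3 mg/kg, beside 18.5% and 16.9% of the genes tested. The same numbers, 3 and 2, rose and fell at 30 mg/kg, beside 16.3% and 15.7%. At each dose Camk2b, Camkv and Camk1g were higher and Camk1 and Camk2a were lower. The median log2 fold change of the 9 genes was 0.10 at 3 mg/kg and 0.10 at the higher dose, against 0.006 and 0.004 over all genes.

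**Figure D2:**
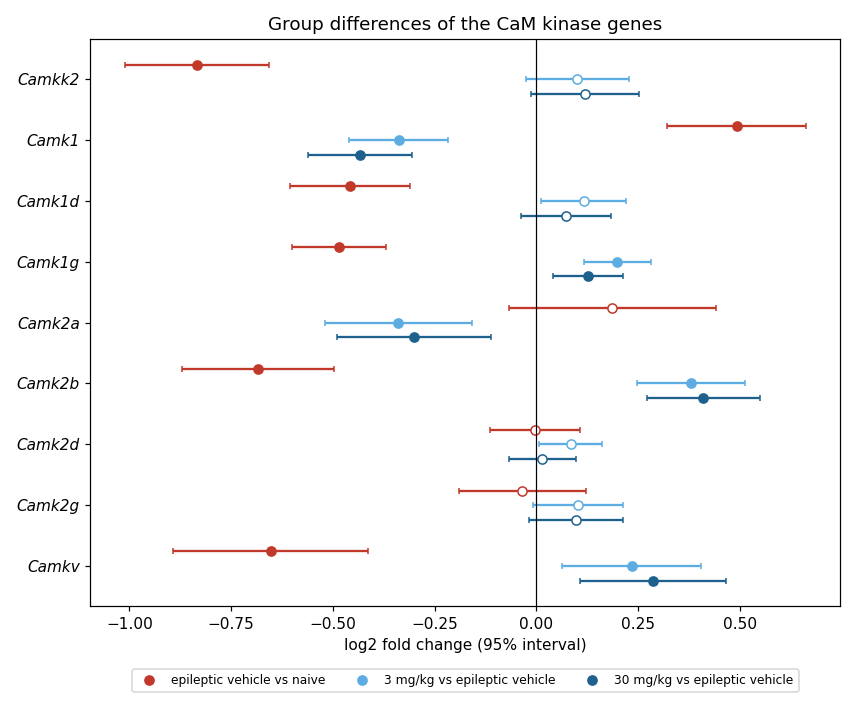
Log2 fold change (x axis) of each gene in 3 comparisons with its 95% interval (limma); filled points passed the adjusted threshold and open points did not. Without background subtraction, Camkk2 had the largest difference of the 9 genes in epileptic vehicle against naive mice (-0.83). Camk1 and Camk2b had opposite signs in all 3 comparisons shown.

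Camk1 was lower in every treated mouse than the epileptic vehicle median. Its signal was 8.98, 9.28 and 9.56 (lowest, median and highest) at 3 mg/kg and 8.64, 9.22 and 9.57 at the higher dose, where epileptic vehicle mice had 9.25, 9.68 and 9.83. The groups overlapped, with 7 of 18 and 8 of 15 treated mice below the lowest vehicle mouse. The log2 fold changes were -0.34 (SE 0.061, adjusted p = 9.99e-06) and -0.43 (SE 0.063, adjusted p = 5.34e-07).

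Camk2b was at 12.56, 13.15 and 13.55 at 3 mg/kg and at 12.70, 13.19 and 13.73 at the higher dose, with the epileptic vehicle median at 12.74. All but 1 mouse of each treated group exceeded that median. The log2 fold changes were 0.38 (SE 0.066, adjusted p = 5.65e-06), or 1.30-fold, and 0.41 (SE 0.069, adjusted p = 6.58e-06), or 1.33-fold.

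Camk2a was at 11.97, 12.79 and 13.29 at 3 mg/kg and at 12.51, 12.82 and 13.07 at the higher dose, with the epileptic vehicle median at 13.15. In 17 of 18 and 15 of 15 treated mice it was below that median. The log2 fold changes were -0.34 (SE 0.09, adjusted p = 0.00208) and -0.30 (SE 0.095, adjusted p = 0.0111), and the second probe gave -0.36 (SE 0.11) and -0.32 (SE 0.11). The 2 lowest mice at 3 mg/kg, at 11.97 and 12.11, were also the lowest of their group on the second probe. The 30 mg/kg call did not hold when sets of 8 consecutive sample numbers entered as a block (-0.26, adjusted p = 0.0577).

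**Figure D3:**
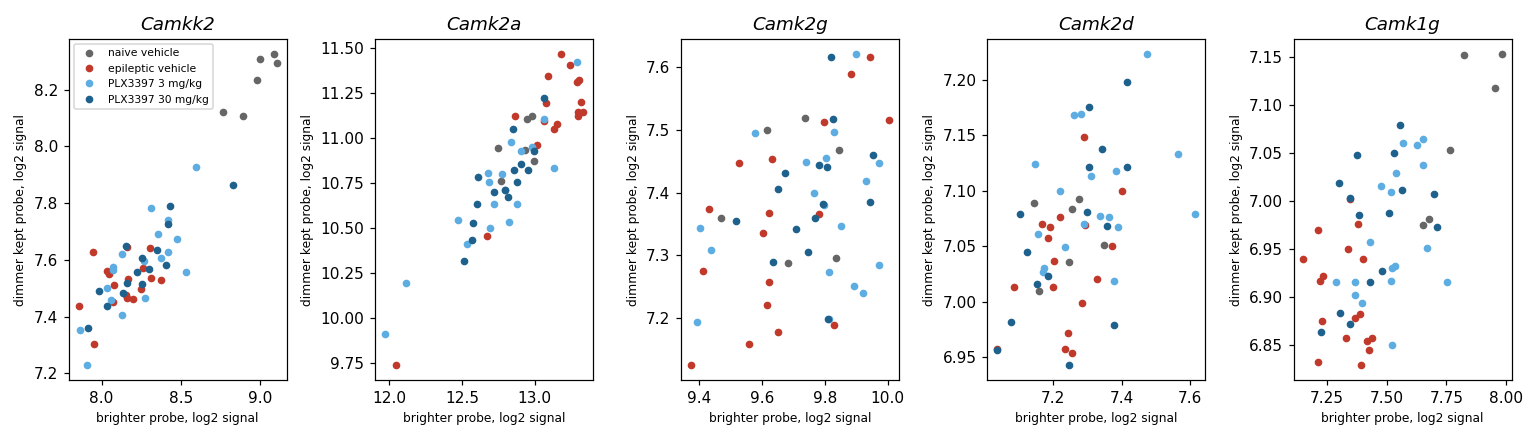
Log2 signal of the dimmer kept probe (y axis) against the brighter one (x axis) for the 5 genes with a pair of kept probes, 1 point per mouse and a colour per group; the axes do not start at 0. Naive mice lie above all other mice on the dimmer Camkk2 probe. On the brighter one they overlap with the 30 mg/kg group, of which 14 of 15 mice lie below the lowest naive mouse. The 3 lowest Camk2a mice are low on both Camk2a probes. The dimmer Camk1g and Camk2d probes were below detection in most mice.

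Camk1g was at 7.29 to 7.75 (median 7.52) at 3 mg/kg and at 7.23 to 7.71 (median 7.43) at the higher dose, against a median of 7.35 in epileptic vehicle mice. The log2 fold changes were 0.20 (SE 0.041, adjusted p = 8.2e-05) and 0.13 (SE 0.043, adjusted p = 0.0171). With normexp they were 0.50 and 0.32. At 3 mg/kg, 13 of 18 mice lay above the highest vehicle mouse.

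Camkv was at 10.50 to 11.31 (median 10.98) at 3 mg/kg and at 10.58 to 11.34 (median 11.02) at the higher dose, where the epileptic vehicle median was 10.78. The log2 fold changes were 0.23 (SE 0.085, adjusted p = 0.0257) and 0.29 (SE 0.089, adjusted p = 0.0101). These calls were lost under more of the alternatives run than those of any other of the 9 genes. At 3 mg/kg the adjusted p was 0.0536 without epileptic vehicle mouse 2, 0.058 without mouse 6 and 0.108 when the sets of 8 entered as a block. The value at 30 mg/kg was 0.0683 when the run entered as a block.

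The second run held 13 of 15 mice of the 30 mg/kg group, 10 of 18 of the 3 mg/kg group and 6 of 17 epileptic vehicle mice. Within the first and second run the 3 mg/kg difference was 0.32 and 0.06 for Camkv, -0.17 and -0.53 for Camk2a, -0.32 and -0.33 for Camk1, 0.40 and 0.32 for Camk2b, and 0.23 and 0.19 for Camk1g. The values of Camkv and Camk2a lay farther apart between the runs than those of the other 3 genes. The 30 mg/kg difference of Camkv was 0.43 and 0.09, that of Camk2a -0.07 and -0.42, that of Camk1 -0.38 and -0.39, that of Camk2b 0.40 and 0.34, and that of Camk1g 0.29 and 0.13. The first run held only 2 mice given 30 mg/kg.

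Camkk2, Camk1d, Camk2d and Camk2g, each read from its brightest kept probe, did not pass the test at either dose. Camkk2 was 7.86 to 8.59 at 3 mg/kg and 7.91 to 8.83 at the higher dose, with differences of 0.10 (95% interval -0.03 to 0.23) and 0.12 (95% interval -0.01 to 0.25) from epileptic vehicle mice. Those of Camk1d were 0.12 (95% interval 0.01 to 0.22, adjusted p = 0.0739) and 0.07 (95% interval -0.04 to 0.18). Those of Camk2g were 0.10 at each dose (95% intervals -0.01 to 0.21 and -0.02 to 0.21), and those of Camk2d 0.08 (95% interval 0.01 to 0.16, adjusted p = 0.0864) and 0.01 (95% interval -0.07 to 0.10).

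The doses were then compared with each other. None of the 9 genes passed the test (0 higher and 0 lower), beside 0.92% and 1.25% over all genes. The largest difference was that of Camk1, at -0.09 (95% interval -0.22 to 0.03, adjusted p = 0.453). The intervals of the other 8 genes lay between -0.16 and 0.23, which bounds the difference between doses but does not show that they act alike. Microglial markers differed between the doses in the same mice: 5 of 10 were lower at 30 mg/kg.

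Against naive mice, 5 of the 9 genes were lower and 0 higher at each dose. The shares of all genes were 14.8% lower and 11.5% higher for 3 mg/kg, and 17.5% and 13.1% for 30 mg/kg. The 5 genes were Camkk2, Camk1d, Camk1g, Camk2b and Camkv, the genes lower in epileptic vehicle mice. The medians of the 9 genes were -0.29 and -0.27. Both comparisons share the 6 naive mice with the first.

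Without background subtraction, Camkk2 stayed farthest from the naive level, with log2 fold changes of -0.73 and -0.71 (limma, adjusted p = 1.24e-08 and 1.58e-08). All 18 mice at 3 mg/kg and 14 of 15 at the higher dose lay below the lowest naive mouse. It was the 1 gene of the 9 without overlap at 3 mg/kg (3.56% of all genes), and 0 of the 9 were without overlap at the higher dose (5.5% of all genes). Camk2b differed from naive mice by -0.30 (adjusted p = 0.0103) and -0.27 (adjusted p = 0.0218; 0.0642 without naive mouse 6).

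Camk1 differed from naive mice by 0.15 (95% interval -0.01 to 0.32, adjusted p = 0.179) at 3 mg/kg and by 0.06 (adjusted p = 0.64) at the higher dose. The 3 mg/kg value passed the test under a pair of alternatives, with the sets of 8 as a block (0.24, adjusted p = 0.0278) and with the replicate number as a block (0.25, adjusted p = 0.0353). Camkv differed by -0.42 and -0.37, Camk1g by -0.29 and -0.36, and Camk1d by -0.34 and -0.38, and all passed (with normexp, -0.58 and -0.76 for Camk1g and -0.76 and -0.85 for Camk1d). Camk2a, at -0.15 and -0.11, did not.

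The 9 genes also varied among mice of the same group. Log2 values were centred within each group and each of the 36 pairs was correlated over 56 mice, with 2-sided permutations of mice within groups (100000 resamples, Benjamini-Hochberg over the 36 pairs). Of these, 12 pairs had a positive and 5 a negative correlation past the threshold. The share of pairs past it among all genes tested was not computed, so nothing particular to these genes is read from the count. All values of a mouse come from 1 array and 1 normalization.

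**Figure D4:**
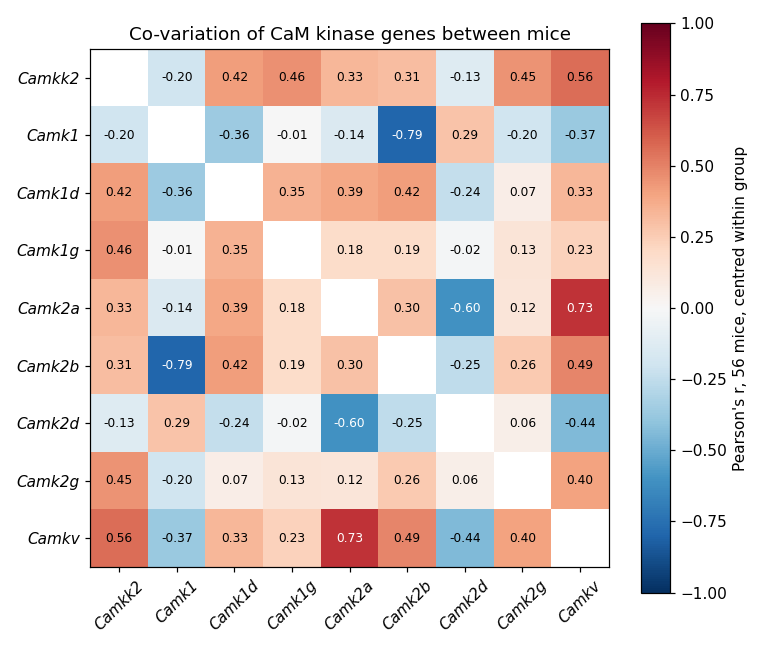
Pearson's r of each pair of genes over 56 mice after centring log2 signal within group (colour scale from -1 to 1). The strongest value is the negative one of Camk1 with Camk2b (-0.79), and the highest is that of Camk2a with Camkv (0.73).

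Camk1 and Camk2b had the strongest relation. Pearson's r was -0.79 and Spearman's rho -0.78, each with a permutation p = 1e-05, the smallest that the resamples can give (adjusted 9e-05 and 0.00018). Mice with more Camk2b signal had less Camk1 signal within every epileptic group: r was -0.91 in epileptic vehicle mice, -0.62 at 3 mg/kg and -0.88 at the higher dose. It was -0.66 and -0.82 within the runs of sample numbers, and -0.74 without the 2 mice farthest from the median of Camk1.

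Camk2a and Camk2d were also inversely related, with r = -0.60 and rho = -0.57 (permutation p = 1e-05 and 2e-05, adjusted 9e-05 and 0.00018). Within groups r was -0.66, -0.61 and -0.72, within runs -0.53 and -0.66, and without the 2 farthest mice -0.54. The third pair was Camk2d with Camkv (r = -0.44, rho = -0.37, permutation p = 0.00079 and 0.00621, adjusted 0.00387 and 0.0186), at -0.35 without the 2 farthest mice and -0.37 and -0.43 within runs. The Camk2d probe is dim and its range over mice narrow.

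**Figure D5:**
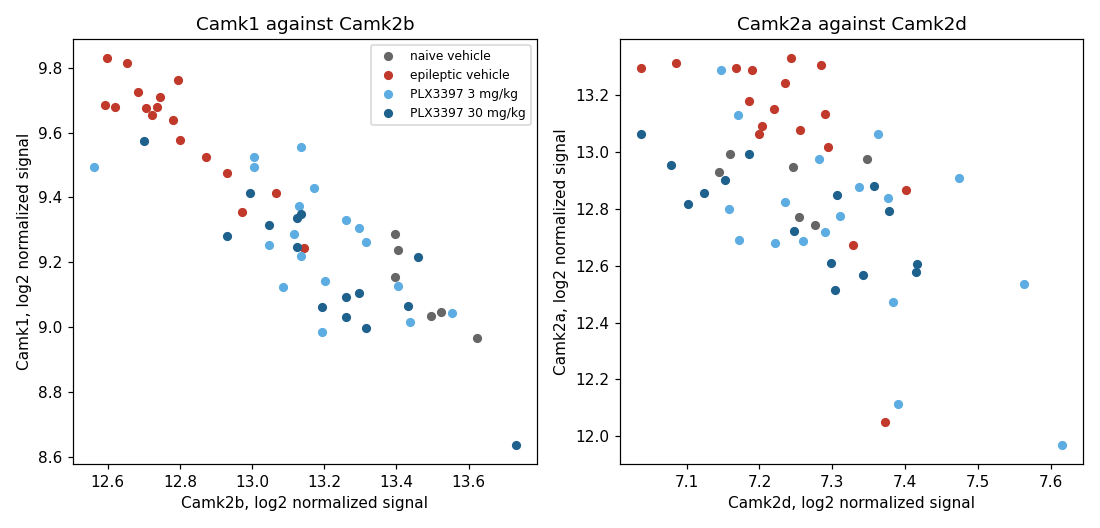
Log2 signal of Camk1 against Camk2b (left) and of Camk2a against Camk2d (right), 1 point per mouse, colours for the 4 groups; the axes do not start at 0. Within each epileptic group both relations are negative, with r from -0.91 to -0.62 on the left and from -0.72 to -0.61 on the right.

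Camkv took part in all 3 of the highest positive pairs. With Camk2a, r was 0.73 and rho 0.60 (permutation p = 1e-05 and 2e-05, adjusted 9e-05 and 0.00018), falling to r = 0.57 without the 2 farthest mice; within groups it was 0.73, 0.81 and 0.57 and within runs 0.78 and 0.74. With Camkk2, r was 0.56 and rho 0.68 (permutation p = 1e-05 each, adjusted 9e-05 and 0.00018), and 0.51 without the 2 farthest mice. This relation was weaker in epileptic vehicle mice (r = 0.33) than its values of 0.74 and 0.81 at 3 and 30 mg/kg, a difference that was not tested, and it was 0.34 and 0.71 within the runs. With Camk2b, r was 0.49 and rho 0.49 (permutation p = 0.00012 and 0.00023, adjusted 0.000864 and 0.00166), 0.45 without the 2 farthest mice and 0.35 and 0.55 within the runs.

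The genes around the kinases were taken from lists by role, and their counts stand beside the shares of all genes: 26.5% lower and 22.6% higher in epileptic vehicle mice, 18.5% higher and 16.9% lower at 3 mg/kg and 16.3% and 15.7% at 30 mg/kg against epileptic vehicle mice. With few genes per list, nothing particular to a list is read from its count. Of 2 measured calmodulin genes, Calm3 was lower in epileptic vehicle than in naive mice, at -0.50 (SE 0.059, adjusted p = 3.31e-10), and higher by 0.22 and 0.28 at 3 and 30 mg/kg. Calm2 passed only at 30 mg/kg, where it was 0.31 higher than in epileptic vehicle mice (adjusted p = 0.0151).

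Of 8 measured genes of calcineurin and the CaM kinase phosphatases, 4 were lower and 0 higher in epileptic vehicle mice (Ppm1e, Ppp3ca, Ppp3cb and Ppp3r1), beside 26.5% and 22.6% of all genes. The same 4 genes were higher, and 0 lower, at each dose against epileptic vehicle mice (18.5% and 16.3% of all genes were higher), and lower at each dose against naive mice (14.8% and 17.5% of all genes were lower). Where counts of 5 or fewer are broken down here and below, Ppp3cb, Actn2, Syn2, Shank3, Dlg4, Mef2c, Mef2d and Crem were named after their values were seen. Ppm1e, a nuclear phosphatase that removes the activating phosphate from CaM kinases, was 11.42 to 11.74 in naive mice and 10.11 to 10.72 in epileptic vehicle mice, without overlap. Its log2 fold change was -1.21 (SE 0.1, adjusted p = 5.02e-14), followed by 0.51 at 3 mg/kg and 0.52 at the higher dose. Ppp3ca and Ppp3r1, the catalytic and regulatory subunits of calcineurin, differed by -0.67 and -0.50 in epileptic vehicle mice and were higher at each dose, by 0.30 and 0.29 for Ppp3ca and by 0.19 and 0.14 for Ppp3r1.

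Of 12 measured synaptic partners and substrates of CaM kinase II, 7 were lower and 0 higher in epileptic vehicle mice, beside 26.5% and 22.6% of all genes. The lower dose had 5 higher (Gria1, Gria2, Syn1, Syn2 and Actn2) and 1 lower (Shank3), and the higher dose 4 higher (Gria1, Gria2, Syn1 and Actn2) and 1 lower (Dlg4), beside 18.5% and 16.3% of all genes higher. Against naive mice 7 were lower and 0 higher at each dose, beside 14.8% and 17.5% of all genes lower. Syn1, synapsin I, differed by -0.85 (SE 0.086, adjusted p = 6.42e-12), then by 0.45 and 0.30 at the doses. The AMPA receptor subunits Gria2 and Gria1 differed by -0.75 and -0.77, then by 0.21 and 0.32 for Gria2 and by 0.34 and 0.25 for Gria1.

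Among 6 measured genes of the wider family, 4 were lower in epileptic vehicle mice and 0 higher. Camk2n1, an inhibitor of CaM kinase II, was one of them at -0.19 (SE 0.081, adjusted p = 0.0488), with Cask at -0.25, Dclk1 at -0.36 and Dclk2 at -0.40. Dclk1 alone of the 6 passed at 3 mg/kg against epileptic vehicle mice, at 0.29, and 0 did at the higher dose; Dclk3 passed in no comparison. Cask, a scaffold with a CaM kinase domain, was lower at 30 than at 3 mg/kg (-0.11, adjusted p = 0.0334).

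Of 8 other calmodulin-activated kinases, 2 were higher in epileptic vehicle mice (Mylk at 0.52 and Phkg1 at 0.31) and 1 lower (Dapk1, a death-associated kinase, at -0.69). At 3 mg/kg against epileptic vehicle mice the differences of Mylk, Phkg1 and Dapk1 were -0.27, -0.32 and 0.30 and passed; for the higher dose Mylk (-0.30) and Dapk1 (0.27) passed and Phkg1 (-0.18) did not. Among 4 measured proteins that hold calmodulin in reserve, Nrgn (-0.45, adjusted p = 0.00193) and Marcksl1 (-0.31, adjusted p = 0.0024) were lower in epileptic vehicle mice; at the doses only Nrgn at 3 mg/kg passed (0.25, adjusted p = 0.0189), and Gap43 passed nowhere.

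Of 12 measured nuclear targets, 4 were lower and 0 higher in epileptic vehicle mice, a share of lower genes near the 26.5% of all genes. Hdac4, a histone deacetylase exported from the nucleus after phosphorylation by CaM kinases, differed by -0.57 (SE 0.051, adjusted p = 3.43e-13). Creb1 differed by -0.24, Mef2a by -0.19 and Mef2c by -0.38. Creb1 and Mef2a were dim, each with a mean log2 signal of 7.09 in epileptic vehicle mice. That is below the 7.23 of the Camk2d probe, which was close to background. Hdac4 did not pass at either dose against epileptic vehicle mice (-0.03 and -0.09) and stood at -0.59 and -0.66 against naive mice. The lower dose had 2 targets higher (Creb1 and Mef2c) and 2 lower, and the higher dose 1 higher (Mef2d) and 3 lower (with Crem), beside 18.5% higher and 16.9% lower, and 16.3% and 15.7%, of all genes; Hdac5 (-0.23 and -0.21) and the CREB coactivator Crtc1 (-0.16 and -0.21) were lower at each dose.

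Of 7 measured genes listed around AMP-activated kinase and Akt, Stk11 among them, 2 were lower and 1 higher in epileptic vehicle mice. Over all genes, 26.5% were lower and 22.6% higher. Prkaa2, a catalytic subunit, differed by -0.23 (SE 0.067, adjusted p = 0.00305), Prkab2 by -0.11 and Prkag1, a gamma subunit, by 0.31 (SE 0.049, adjusted p = 3.12e-07). Prkaa2 and Prkab2 were dim, with means of 7.25 and 7.14 in epileptic vehicle mice, near that of the Camk2d probe (7.23). Prkag1 was lower at each dose (-0.15 and -0.10). Prkab1 was 0.09 higher at 3 mg/kg (adjusted p = 0.0455) and 0.14 lower at 30 than at 3 mg/kg (log2 difference -0.14, adjusted p = 0.0486), and Stk11 passed nowhere.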

How the data were processed

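Per the labels, RNA of 56 hippocampi was hybridised to Illumina MouseRef-8 v2 arrays. The authors extracted probe intensity in GenomeStudio 2011.1 (neither background-subtracted nor normalized) and deposited beside each intensity a detection p-value against negative control probes. They also deposited log2 values made with lumi (version not given in the sources used here) by log2 transformation and quantile normalization, used here as an alternative; the largest difference from the values computed here was 0.0437. Arrays were checked for duplicates and none was found (highest correlation 0.99575).

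Intensities were log2 transformed and quantile normalized. Of 25697 probes, 23978 had 1 gene in the platform annotation, 0 had several and 1719 none listed; symbols were updated through RefSeq (GRCm38.p6), 23962 by gene identifier and 9 by accession. The filter kept 14058 probes, those detected (p under 0.05) on 6 or more arrays, and each gene was read from its brightest kept probe on average. Tests used limma 3.58.1 (R 4.3.3; 4 groups in 1 model, Benjamini-Hochberg over 9893 genes, threshold 0.05); values of a second probe come from the same model over all 14058 kept probes. The model was also run on simulated data with independent noise per gene and no run effects, which cannot show how it handles the uneven runs. Promoter sequences are from RefSeq.

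The members and gene lists were chosen with earlier results of these data known. Named genes were all members with each kept probe, per pathway list the 3 of smallest p in epileptic vehicle against naive mice and the 2 of smallest p at each dose, and the 3 highest and 3 lowest correlated pairs. The sets of 8 and the 2 runs are consecutive submitter sample numbers, whose meaning the labels do not give.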

Additional observations from a re-analysis of the deposited data

How the results depend on the processing

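The fit was repeated with the log2 values of the authors, with median scaling, with normexp, with looser and stricter detection filters, with probes averaged or exchanged, with array weights, with trend and robust moderation, with each block (runs, sets of 8, replicate number), on the compared groups alone, and without each mouse in turn. Apart from the fits without 1 mouse, 662 values of single genes kept their side of the threshold, 12 newly passed it and 4 no longer did. The 662 include 54 values each from the authors' log2 values, the looser filter and the stricter filter, which change the signal of these genes little or not at all. They also include 6 and 5 values of the dimmer Camk1g and Camk2d probes, which were below detection in most mice. That Camk2d probe also gave 1 of the 12 that newly passed. Of the values that passed in the main or the repeated fit, 0 reversed direction. Direction was not compared where a value passed in neither fit, and some of those changed sign. The dimmer Camk2g probe, for example, gave -0.04 at 3 mg/kg against naive mice, where the main fit gave 0.07. The count of genes called at 3 mg/kg against epileptic vehicle mice rose from 5 to 9 (7 higher, 2 lower) under median scaling, which newly called Camk1d (0.16), Camk2d (0.11), Camk2g (0.22) and Camkk2 (0.20). With each mouse left out, the counts ran from 6 to 7 in epileptic vehicle against naive mice, from 4 to 6 at 3 mg/kg and 5 to 5 at 30 mg/kg against epileptic vehicle mice, 0 to 0 between doses, 5 to 5 at 3 mg/kg and 4 to 5 at 30 mg/kg against naive mice. Camk1d at 3 mg/kg passed without any 1 of mice 12, 14, 15 or 16 of that group. Camk2a in epileptic vehicle mice passed with array weights (0.24, adjusted p = 0.0237), and Camkv at 3 mg/kg missed the threshold in the fit of the compared groups alone (adjusted p = 0.056). Replicate numbers did not pair the mice, since same-numbered mice had correlations of their deviations from -0.432 to 0.386; the replicate block gave 6, 5, 5, 0, 6 and 5 calls in the same order of comparisons. Of the 36 pairs, 15 rather than 17 passed after centring within group and run.

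Over all genes, median scaling moved the share of higher among called genes from 46 to 26.2% in epileptic vehicle against naive mice, from 52.3 to 79.3% at 3 mg/kg and 51 to 71.2% at 30 mg/kg against epileptic vehicle mice, from 42.3 to 25.7% between doses, and from 43.6 to 26.2% and 42.8 to 17.4% for the doses against naive mice. Between doses the calls over all genes (91 higher, 124 lower) became 26 and 75 with median scaling, 166 and 202 with array weights, and 27 and 40 with the sets of 8 as a block. Signal over background limits Camk1d, Camk1g and Camk2d, whose probes are dim, and Camk4 could not be measured. It also limits dim genes of the lists by role, among them Creb1, Mef2a, Prkaa2, Prkab2 and Marcksl1.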

Other observations

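The genes whose log2 signal, centred within group, was most like that of Camk2a over 56 mice were Fgf13 (Pearson's r = 0.88), Crtc1 (0.80), Jph3 (0.78), Arhgef4 (0.78) and Ehmt2 (0.77). For Camk2d they were Klf5 (0.70), Vwc2l (0.69), Grm8 (0.66), Ecel1 (0.65) and Efna5 (0.64). These are the highest 5 of all genes tested, given as a description with no test; all values of a mouse share 1 array and its normalization. Further probes were not above background: the Camk2a probe of another transcript record was detected on 0 arrays, a further pair of Camk2d probes on 0 and 2, and a second Camk1d probe on 0.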
